A study of Mus musculus with 2 samples.

Results

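RefSeq noncoding transcripts are RNAs that the RefSeq collection lists under an accession beginning with NR_, that is, long noncoding RNAs, transcribed pseudogenes, antisense RNAs, noncoding variants of coding genes, and small structural RNAs. They were chosen on the arrays by that accession alone, and 1216 of 55681 probes carried one. These probes covered 1078 accessions, and 1137 of them received a gene symbol through the RefSeq gene table. The study compared the prefrontal cortex (PFC) of male C57Bl/6 N sea mice without treatment (C group) and after 4 weeks of chronic mild stress (CMS group). The mice were 9 to 10 weeks old at the start, the C group was housed in groups, and the CMS group was housed individually, so that single housing and the stressors cannot be told apart. According to the series text, total RNA of 7 mice was mixed into 1 pool per group, and each pool was hybridized to 1 single-color (Cy3) Agilent mouse array, both on 1 slide. The methods state another number of mice per group. With 1 array per group there was no spread between mice, so no test between the groups was made and each ratio compares these 2 arrays.

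Long noncoding RNAs are transcribed and often spliced like mRNAs but are not translated into a known protein. Some, such as Malat1 and Neat1, stay in the nucleus, others come from imprinted loci and are made from the chromosome of 1 parent, and others serve mainly as the precursors from which microRNAs (miRNAs) or small nucleolar RNAs (snoRNAs) are cut. Transcribed pseudogenes are decayed copies of genes, and some of them are still transcribed.

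Several of these transcripts are hosts of miRNAs, short RNAs that pair with target mRNAs through a seed at bases 2 to 8. The gene table and the miRNA table of RefSeq (GRCm38.p6) placed 30 miRNA hairpins inside 13 host genes of the probe set on the same strand, with 56 mature miRNAs. The arrays measured the host transcripts and not the mature miRNAs. The sequences below are shown because their hosts are described in the results, and their seeds are in capitals. The sequences of miR-9-5p and miR-9-3p lay in Mir9-3hg on chromosome 7, that of miR-22-3p in Mir22hg on chromosome 11, that of miR-770-5p in Meg3, that of miR-433-3p in 6430411K18Rik, and the last 3 in Mirg, all of these on chromosome 12.
miR-9-5p: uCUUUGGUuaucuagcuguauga
miR-9-3p: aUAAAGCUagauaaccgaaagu
miR-22-3p: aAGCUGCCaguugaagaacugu
miR-770-5p: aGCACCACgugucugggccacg
miR-433-3p: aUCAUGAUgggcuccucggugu
miR-410-3p: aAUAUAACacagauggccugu
miR-453: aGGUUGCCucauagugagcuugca
miR-496a-5p: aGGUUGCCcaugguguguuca
All of these lay on the plus strand, miR-9-5p at chr7:79505279-79505301, miR-9-3p at chr7:79505318-79505339, miR-22-3p at chr11:75463772-75463793, miR-770-5p at chr12:109563710-109563731, miR-433-3p at chr12:109591781-109591802, miR-410-3p at chr12:109743764-109743784, miR-453 at chr12:109735669-109735692 and miR-496a-5p at chr12:109739132-109739152. The miRNAs miR-453 and miR-496a-5p shared the seed GGUUGCC, and 3 seeds in all were held by more than 1 of the 56 mature miRNAs.

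Of 1216 noncoding probes, 658 (54.1%) on the C array and 677 (55.7%) on the CMS array were well above background. These shares were 64.3% and 65% over all probes and 77.1% and 77.7% over 26536 probes for RefSeq mRNAs (accessions beginning with NM_). Well above background is the mark that the scanner software gives a spot whose signal exceeds its local background by a clear margin. A probe without the mark can still have a signal above background, such as 19.3 for 5730416F02Rik in the C pool. Both pools passed this mark for 633 noncoding probes, only the C pool for 25, only the CMS pool for 44, and neither for 514. By kind of RNA, all 13 probes for snoRNA host genes passed in both pools, and so did 16 of 18 probes for noncoding variants of coding genes. Among transcribed pseudogenes 131 of 236 probes passed in both pools, and among antisense RNAs 35 of 76.

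Ratios were taken between signals scaled to a mean of 2500 on each array. Where 1 pool alone was well above background, the dim side was raised to at least the lowest signal that passed on its array (17.8 in the C pool, 17.6 in the CMS pool). In this way 702 noncoding probes could be compared. Such a fold change is called a bound, given below as 'at least', and it holds for this floor only. It is not a sure lower limit, since some spots failed the mark at signals above the floor, such as 19.3 for 5730416F02Rik with C RNA. Over the settings compared below, the log2 ratio of Cdk3 ran from 1.60 to 4.15 (3.10 as reported). That of Gm6938 ran from -4.18 to -1.59 (-3.53 as reported). Within a probe, repeated spots scattered with an SD of 0.13 on the log2 scale (342 probes of all kinds), and of 0.08 for the 4 noncoding probes with several spots. This is the error within the arrays, and it does not hold the difference between mice.

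The CMS pool differed from the C pool by more than 2-fold for 19 of the 702 noncoding probes (2.71%), and the share over all 37377 probes compared was 2.41%. The share of noncoding probes was close to that background. Of these, 13 were called higher, above 2-fold (1.85%, 1.82% of all probes), and 6 were called lower, below 0.5 times (0.855%, 0.581% of all probes). Bounds made up 9 of the higher and 4 of the lower calls. With normexp background correction and quantile normalization, 4 of the 13 and 3 of the 6 were still called. The shares called were then 0.997% of the noncoding probes and 0.936% of all probes. Among probes well above background in both pools, 4 noncoding probes were called higher and 2 lower (0.948% in all), and over all such probes 1.05% were higher, 0.156% lower and 1.21% either. The median log2 ratio of the noncoding probes was -0.001 with quartiles of -0.14 and 0.12, the median over all probes was -0.03, and that over mRNA probes was -0.04. In the plot of the signals in both pools the noncoding probes lay along the diagonal, and the called probes lay at the dim end.

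**Figure D1:**
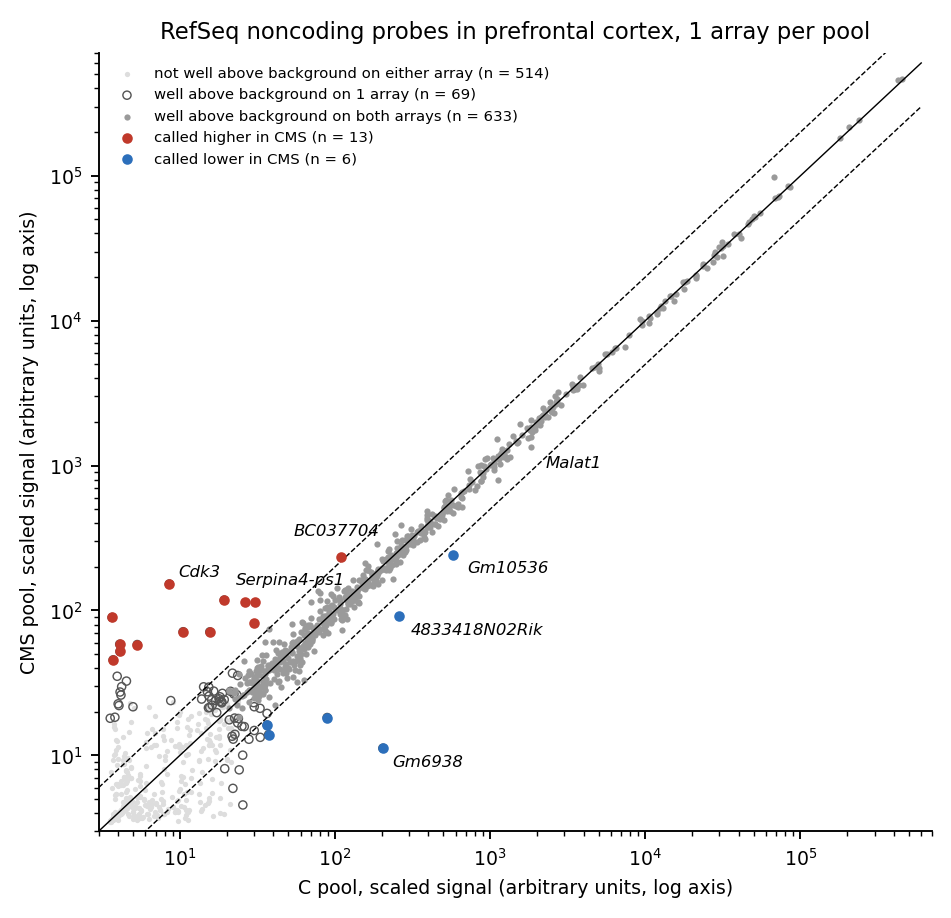
Scaled signal of each noncoding probe in the C pool (x axis) and the CMS pool (y axis), in arbitrary units on log axes. The solid line marks equal signals and the dashed lines 2-fold differences. The 13 red points (higher in CMS) and 6 blue points (lower) all had their brighter signal at or below 578.

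The called probes had low signals. Their brighter signal ran from 36.5 to 578, and 180 of the 702 compared probes had a brighter signal than any of them. When all probes measured in both pools were divided into 4 equal bins by mean signal, the lowest bin, up to 84.3, held 206 noncoding probes whose log2 ratios had an interquartile range of 0.39. In the highest bin, above 1729, the range of 116 noncoding probes was 0.11. No noncoding probe in the highest bin was called.

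The falls measured in both pools were led by 4833418N02Rik, a long noncoding RNA of chromosome 17. It gave a signal of 257 with C RNA and 91.5 with CMS RNA, which is 2.80-fold lower (log2 ratio -1.49). The gene overlaps Ttc7, which encodes a tetratricopeptide repeat protein, and the Ttc7 mRNA probe gave 1305 and 1302 (log2 ratio -0.003), so the coding neighbor was at the same signal in both pools. Gm10536, a long noncoding RNA of chromosome 18 near Marchf3, gave 578 with C RNA and 243 with CMS RNA, or 2.38-fold lower (log2 ratio -1.25). Marchf3, a ubiquitin ligase gene, had a log2 ratio of -0.02. These were the only noncoding probes below 0.5 times with both pools well above background.

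The other 4 falls are bounds, since the CMS signal was not well above background. Gm6938, a gene of the X chromosome, gave 204 with C RNA and 11.2 with CMS RNA and was at least 11.6-fold lower. Btnl5-ps, a pseudogene of the butyrophilin-like family, gave 89.0 and 18.2 and was at least 4.88-fold lower. The other 2 probes of Btnl5-ps were not well above background in either pool. Tunar, a long noncoding RNA known from neural differentiation, gave 37.3 and 13.9 and was at least 2.12-fold lower. The gene 5730403I07Rik gave 36.5 and 16.2 and was at least 2.07-fold lower.

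Among the 13 rises, 4 were measured in both pools. The serpin pseudogene Serpina4-ps1 gave 26.4 with C RNA and 115 with CMS RNA, or 4.34-fold higher (log2 ratio 2.12). Cyp2d13, a pseudogene of the Cyp2d cytochrome P450 family, gave 30.0 and 81.7, or 2.72-fold higher (1.45). BC037704, a long noncoding RNA of chromosome 19, gave 109 and 232, or 2.13-fold higher (1.09). Its neighbor Slc25a28, which encodes a mitochondrial iron carrier, had a log2 ratio of -0.05. The fourth, Fbxl12os, was read by 3 probes that did not move together. The first gave 30.7 and 114 (log2 ratio 1.89), the second 42.2 and 36.5 (-0.21), and the third 17462 and 18552 (0.09). Only 1 of the 3 probes was therefore called, and the mRNA of Fbxl12, the gene that its symbol names, had a log2 ratio of -0.21.

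The remaining 9 rises are bounds with the C pool not well above background. The largest was that of Cdk3, a cyclin-dependent kinase gene that RefSeq lists as a transcribed pseudogene in the mouse, with 8.55 with C RNA and 152 with CMS RNA, at least 8.55-fold higher. Next came 5730416F02Rik with 19.3 and 118 (at least 6.11-fold), Gm5627 with 3.66 and 89.5 (at least 5.03-fold), and 1700086L19Rik with 10.5 and 71.3 (at least 4.01-fold). Cyp2d37-ps, also of the Cyp2d family, gave 15.6 and 71.2 and was at least 4-fold higher. The other 4, Gm11978, 1700001K23Rik, E330012B07Rik and Gm15441, had bounds between 2.56-fold and 3.29-fold, with C signals of 3.71 to 5.31 and CMS signals of 45.6 to 58.5. Gm11978 overlaps Ramp3, which encodes a partner of calcitonin-type receptors, and Gm15441 overlaps Txnip, the inhibitor of thioredoxin. The log2 ratios of these coding genes were 0.04 for Ramp3 and -0.13 for Txnip.

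**Figure D2:**
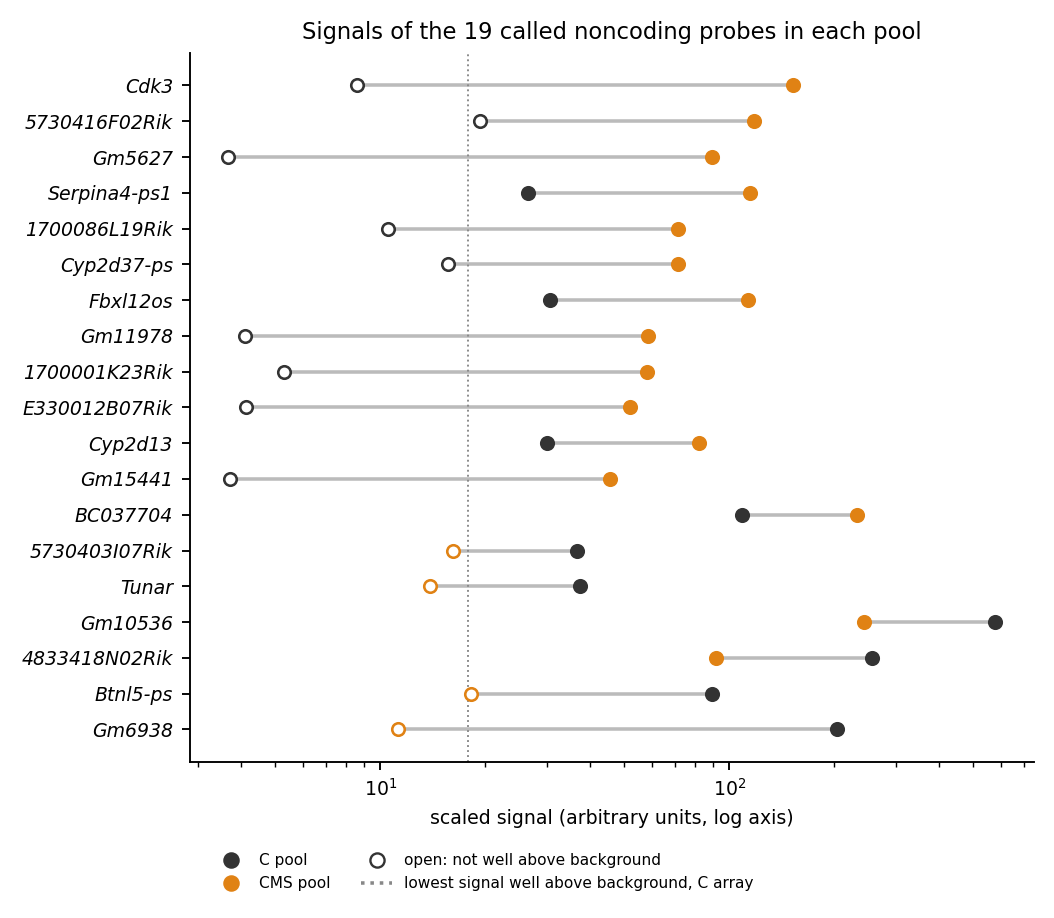
Scaled signals in arbitrary units (log axis) of the 19 called noncoding probes, with the C pool in black and the CMS pool in orange. Open circles were not well above background, and the dotted line is the lowest signal that was so on the C array. The signal of Cdk3 ran from 8.55 to 152 and that of Gm6938 from 204 to 11.2, and only 6 of the 19 probes have both points filled.

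The spots lying beside the called probes on the array were then counted. Of the spots within 4 rows and 4 columns, those called in the same direction were compared with the array as a whole, where 1.89% of 40138 spots were higher and 0.571% lower. Around Gm10536, 8 of 47 spots (17.0%) were called lower, around Gm6938, 7 of 59 (11.9%), and around Cdk3, 7 of 49 (14.3%) were called higher. At least 2 neighbors called the same way were found for 14 of the 19 called probes, 9 of the higher and 5 of the lower. Of the 683 compared noncoding probes that were not called, 25.6% had at least 2 higher neighbors and 4.98% at least 2 lower ones. The other 5 called probes were Serpina4-ps1, Cyp2d37-ps, Gm11978 and Tunar, each with no such neighbor, and Cyp2d13, with 1 of 54. The part of the neighboring spots in the 14 ratios was not tested.

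**Figure D3:**
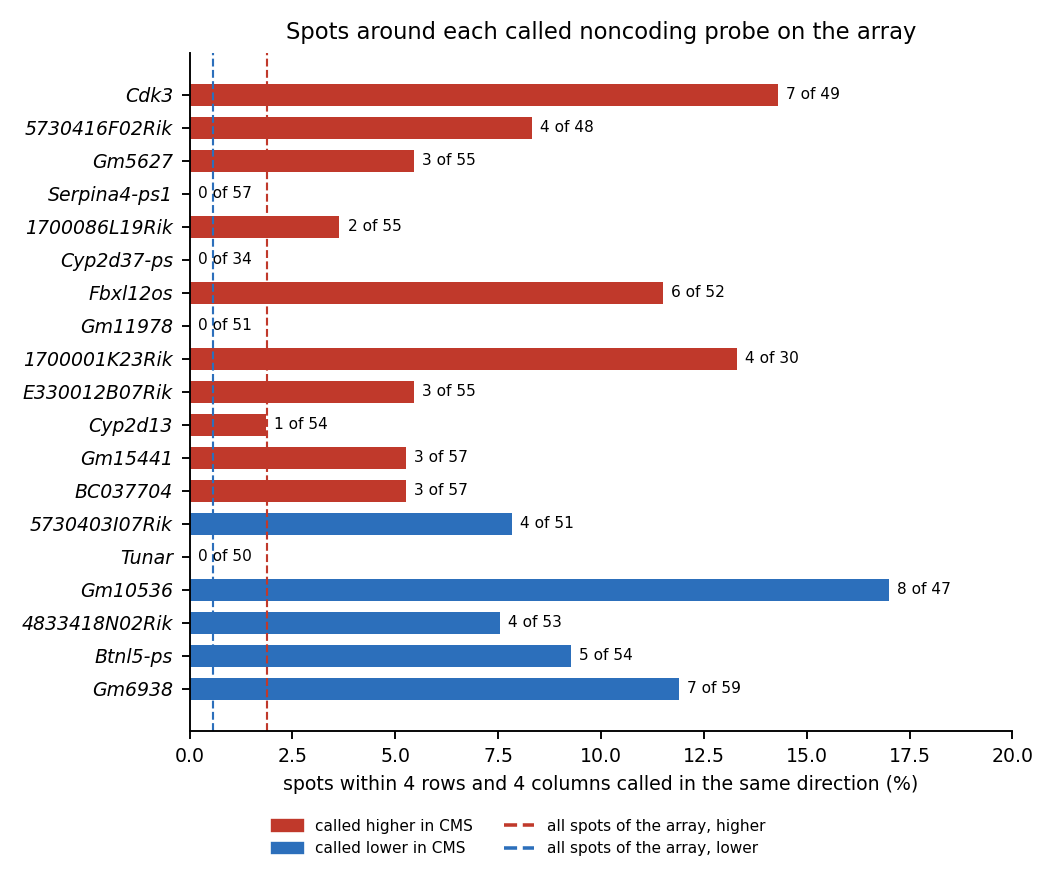
Share of spots within 4 rows and 4 columns of each called noncoding probe that were called in the same direction as the probe, in percent, with the counts beside the bars. The dashed lines mark the share over all spots, 1.89% for higher and 0.571% for lower, and the bars of 14 probes lie above the line of their direction with at least 2 such spots.

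The nearest coding gene with a probe was looked up for each called probe in the RefSeq gene table. A ratio could be taken for the coding gene of 16 of the 19 probes. The coding gene was called for 2 of them, in the same direction, and both were pseudogenes of the Cyp2d cluster whose nearest coding gene was Cyp2d34. The other 14 coding genes had log2 ratios between -0.23 and 0.07. Over all noncoding probes measured in both pools with a coding neighbor so measured, 240 of 496 pairs had the same sign.

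The 2 called probes of the Cyp2d cluster belong, with Serpina4-ps1 and Cyp4f41-ps, to a list of pseudogenes of gene families that are active in the liver. Of the 4 pseudogenes of the list on the arrays, Serpina4-ps1 and Cyp2d13 were measured in both pools and called higher. The other 2 passed in the CMS pool only, so that their bounds could only be higher, and Cyp2d37-ps was called. In all, 3 were called. The fourth, Cyp4f41-ps, gave 4.99 with C RNA and 21.7 with CMS RNA, a bound of 1.22-fold. The median log2 ratio of the 4, with the bounds included, was 1.72. With normexp background correction and quantile normalization it was 0.68, and Cyp2d13 (0.74) and Cyp2d37-ps (0.61) were no longer called. Serpina3h, a pseudogene of the Serpina3 family that is not on the list, gave 244 and 336 (0.46) and was not called. Of the mRNAs of the Cyp2d family 7 of 8 were called higher, with a median log2 ratio of 2.21. Cyp2d26 gave 219 and 1525 (2.80), and Cyp2d10 gave 120 and 912 (2.93). Cyp2d34 was read by 2 probes. The first, which was used here, gave 27.3 and 282 (3.37) and the other 34.6 and 26.6 (-0.38). Of 13 Serpina1 and Serpina3 mRNAs with a ratio 8 were called higher and 1, Serpina3j, lower, and of 7 Cyp4f mRNAs none was called. Whether a pseudogene probe also binds the mRNAs of its family was not tested.

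Hepatocyte marker mRNAs moved the same way. All 25 such markers were well above background in both pools and 24 of 25 were called higher, with a median log2 ratio of 3.03. Alb, the mRNA of serum albumin, gave 1509 with C RNA and 17486 with CMS RNA (3.53). The summed signal of the 25 markers was 13526 with C RNA and 116525 with CMS RNA. Markers of neurons, astrocytes, oligodendrocytes and microglia had medians of -0.04, -0.03, -0.15 and 0.04, with none called, and all were well above background in both pools. Of 7 choroid plexus markers with a ratio 1 was called higher, with a median of 0.25. It was Ttr, the transthyretin mRNA, which is also made in the liver, with 453 and 4711 (3.38). The erythroid markers had a median of 0.41 with none called. The source of the hepatocyte signal was not tested, nor was the part of this signal in the ratios of the liver pseudogenes. A change in the number of cells of a type, up or down, and a change in RNA per cell cannot be told apart in such pools. Of the 24 called markers, 6 had at least 2 neighboring spots called higher. Gm4956, a pseudogene beside Gsta3, gave 69.8 and 114 (log2 ratio 0.71) while Gsta3, a glutathione transferase gene, gave 655 and 3284 (2.33).

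**Figure D4:**
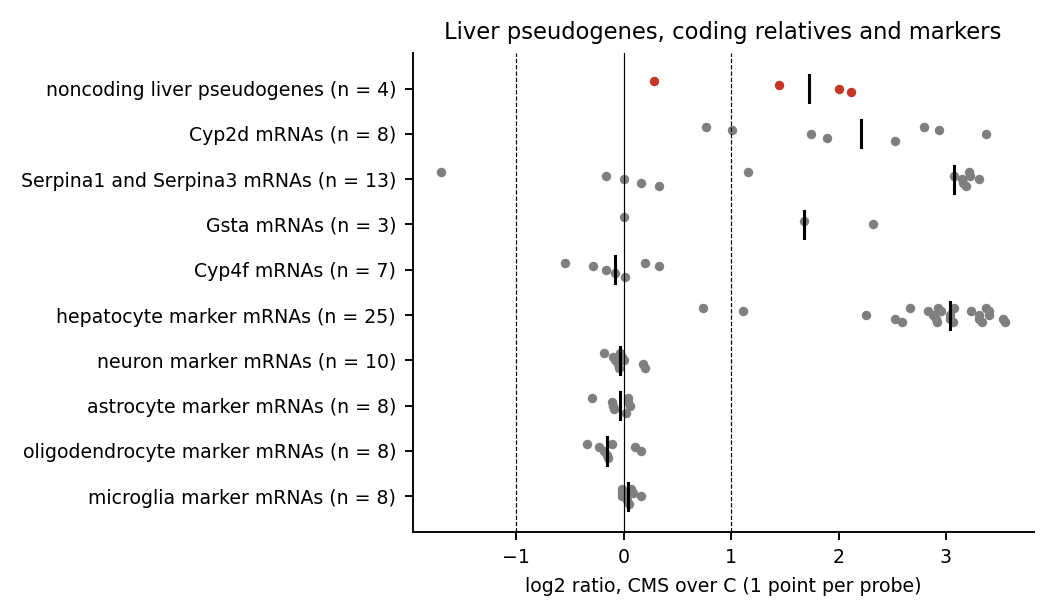
Log2 ratios of CMS over C for the 4 noncoding liver pseudogenes (red), for mRNAs of related families and for marker mRNAs of cell types (grey), with 1 point per probe and bars at the medians. Dashed lines mark 2-fold. The pseudogenes, 2 of them bounds, have a median of 1.72 and hepatocyte markers of 3.03. The neuron, astrocyte, oligodendrocyte and microglia markers lie near 0.

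Noncoding RNAs with a known role were then taken by list. Of nuclear and chromatin-linked RNAs 16 of 19 probes had a ratio, none was called, and the median log2 ratio was -0.03. Malat1, the nuclear speckle RNA, gave 1832 with C RNA and 1344 with CMS RNA, or 1.36-fold lower (-0.45), and was not called. Of the 58 spots around its probe 2 were called lower and 1 higher. Neat1, the scaffold of paraspeckles, gave 2184 and 2247 (0.04). Norad, which binds Pumilio proteins, was read by 4 probes with log2 ratios of -0.17 to 0.19. Tug1, by 3 probes, lay between -0.09 and -0.08. Xist, the RNA that silences 1 X chromosome in females, was not well above background with either probe in either pool, and the labels give male mice.

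The list of imprinted RNAs had 9 probes with a ratio, none called, and a median of -0.06. Meg3, the maternally expressed RNA of the Dlk1 to Dio3 locus of chromosome 12, was lower in the CMS pool with all 3 probes. They gave 41217 and 37040 (-0.15), 7450 and 6579 (-0.18), and 11846 and 11172 (-0.08). Around the first of these probes 4 of 49 spots were called lower, and none around the second (50 spots) or the third (56 spots). Mirg, the host of the miRNA cluster farther along this locus, gave 5012 and 4723 (-0.09), with 2 of 46 neighboring spots called lower. Between them, 6430411K18Rik, the transcript antisense to Rtl1 that carries miR-433, gave 1123 and 793 (-0.50), and none of its 47 neighboring spots was called. Peg13, an imprinted RNA of chromosome 15, gave 31534 and 32549 (0.05), and Kcnq1ot1, the antisense RNA of Kcnq1, gave -0.06 and 0.11 with its 2 probes. Without scaling the median of this list was -0.23, that of all probes was then -0.20, and 6430411K18Rik is not on the list. Other imprinted RNAs outside the list were higher in signal, Ipw with 1563 and 1932 (0.31), Igf2os with 64.3 and 74.0 (0.20) and Peg3os with 44.1 and 45.4 (0.04).

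Among the hosts of the printed miRNAs, 6430411K18Rik (-0.50, above) had the lowest ratio. Mir9-3hg, which carries miR-9, a miRNA of neural progenitors and neurons, gave 2084 and 1903 (-0.13). Mir22hg gave 477 and 428 (-0.15). Mir124-2hg, which is named for the neuronal miR-124 but is not among the 13 hosts found by position, gave 255 and 240 (-0.09). In all, 15 probes of the 13 hosts had a ratio, 11 of them below 0, with a median of -0.10, and none was called. Meg3 gave 3 of the 15 probes. Over all probes compared, 21597 log2 ratios were below 0 and 15777 above, with a median of -0.03. The hosts Mir17hg and Mir100hg had log2 ratios of -0.11 and -0.26, and Dnm3os, the host of miR-199a and miR-214, was at least 1.69-fold higher with 1 of 3 probes and not well above background with the others.

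The list of snoRNA hosts, genes whose introns carry snoRNAs, had 11 probes, none called. All were well above background, with log2 ratios of -0.18 to 0.10 and a median of 0.02, or -0.16 without scaling. Gm15421 gave 18537 and 18692 (0.01), and Snhg1 gave 247 and 219 (-0.18). The list leaves out both probes of Snhg16, which gave 84.0 and 68.0 (-0.30) and 878 and 884 (0.01), so that the 13 probes of all snoRNA hosts ran from -0.30 to 0.10. Of the list of small RNAs, all 5 were higher in the CMS pool by 0.07 to 0.40. The sign of their median turned without scaling, where it was -0.05. Terc, the RNA template of telomerase, gave 61.9 and 81.5 (0.40), and Rmrp, the RNA of RNase MRP, gave 424 and 463 (0.12). The labelling kit primes from poly(A) tails, which several of these RNAs lack.

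Of RNAs linked to neural development or to neurons, 16 of 20 probes had a ratio, with a median of -0.10, and the bound of Tunar was the only call. Pantr1, a cortical RNA transcribed beside Pou3f3, gave 14544 and 14896 (0.03), and Dlx6os1, an RNA of inhibitory interneurons also called Evf2, gave 318 and 285 (-0.16). Emx2os and Sox1ot were each read by 2 probes that disagreed in sign. Of 4 RNAs linked to activity or stress none was called, and their median log2 ratio was -0.14. They were Malat1 (-0.45), Mir22hg (-0.15), Mir9-3hg (-0.13) and Neat1 (0.04). Immediate early mRNAs had a median log2 ratio of -1.004, with 6 of 12 called lower. Arc gave 15898 and 4838 (-1.72) and Fos gave 1502 and 574 (-1.39).

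**Figure D5:**
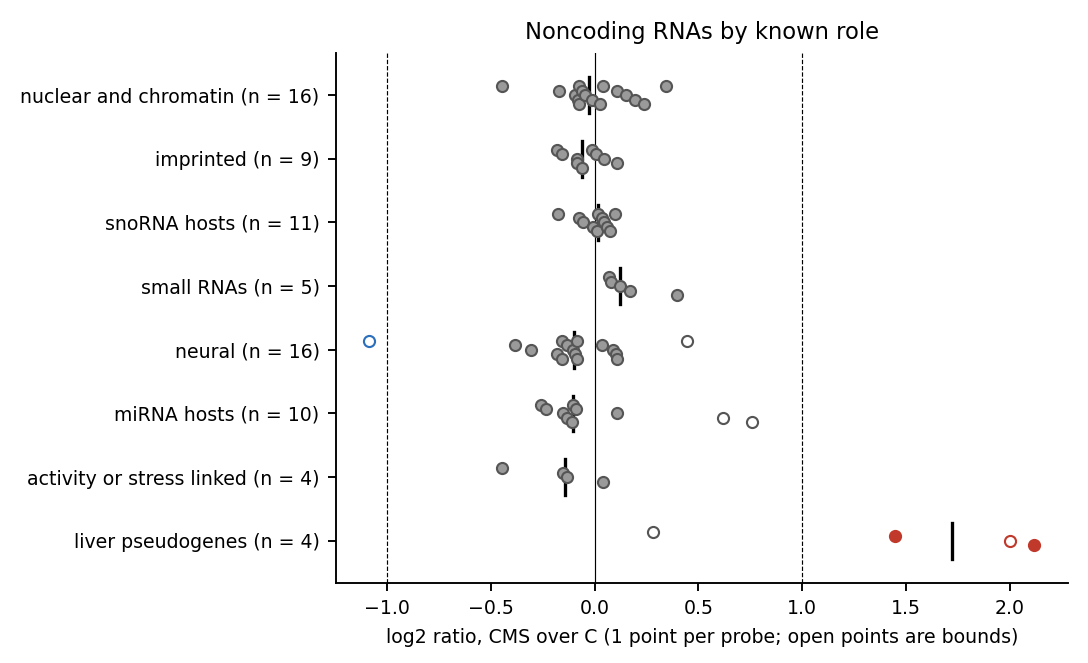
Log2 ratios of CMS over C of noncoding probes in 8 lists of known roles, with 1 point per probe and a bar at each median. Open points are bounds, colored points were called, and dashed lines mark 2-fold. The list of miRNA hosts differs from the 13 hosts found by position. In the first 7 lists the bound of Tunar is the only call. In the last, 3 of 4 liver pseudogenes were called, Cyp2d37-ps on a bound.

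Other differences measured in both pools stayed within 2-fold. The largest rises below it were those of Gm10548, with 37.7 and 74.1 (log2 ratio 0.98), and Alg13, with 77.4 and 136 (0.81). Alg13 encodes a subunit of an enzyme of N-glycosylation, and its mRNA probe gave 163 and 193 (0.25). Around Gm10548, 5 of 56 spots were called higher, and around Alg13, 3 of 50 were called higher and 7 lower. The largest such falls were those of E130112N10Rik, with 62.7 and 33.3 (-0.91), E230016M11Rik, with 41.3 and 22.4 (-0.88), and Gm11110, with 56.5 and 32.3 (-0.81). E230016M11Rik overlaps Gadd45a, a stress-response gene, whose mRNA had a log2 ratio of -0.22. Gm11110 overlaps Tnfsf9, which encodes the ligand of CD137, with -0.37. The called probes nearest to the 2-fold limit were BC037704 (2.13-fold higher) and 5730403I07Rik (at least 2.07-fold lower). The nearest that were not called were 2210409D07Rik (at least 1.98-fold higher) and E130112N10Rik (1.88-fold lower).

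For 10 genes a noncoding and a coding variant were both measured in both pools, in 13 pairs of probes. The noncoding log2 ratio minus the coding one had a median of 0.09 and ran from -0.47 for Prmt6 to 0.56 for Alg13. A second noncoding probe of Prmt6, an arginine methyltransferase gene, gave a difference of -0.06. For antisense RNAs whose symbol names a coding partner, 32 pairs were measured in both pools. None of the partners was called, their log2 ratios ran from -0.29 to 0.21, and 15 of 32 pairs had the same sign. Map2k3os gave 116 and 93.2 (-0.32) and Map2k3, a stress-activated kinase gene, had -0.28, while Kcnd3os gave 175 and 147 (-0.25) and Kcnd3, a potassium channel gene, had -0.004.

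Probes of the same accession could be compared for 57 accessions with at least 2 probes well above background in both pools. The range of their log2 ratios was below 0.2 for 40 accessions and above 0.5 for 4, and the pooled SD between probes was 0.25. The widest ranges were those of Fbxl12os (2.10) and of NR_002860, which has no symbol in the table used, with 3 probes at -0.22, 0.55 and 0.63. The 5 noncoding probes with the strongest signals in the C pool had log2 ratios of 0.00 to 0.10. They were those of Rn4.5s, Gm12070, Gm5523 and 2 accessions without a symbol, and Rn4.5s gave 448259 and 468717 (0.06). Signals of different probes do not rank the amounts of their RNAs. The called probes lay on 10 chromosomes, with at most 3 on any of them.

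Promoters, the 250 bases before and 50 after a start site, were in the RefSeq table (GRCm38.p6) for 641 of 1005 gene symbols of the probe set and for 9 of the 19 called ones. Shown are those of 4833418N02Rik (minus strand, chr17:87282765-87283064) and BC037704 (plus strand, chr19:43674928-43675227), the called genes with a promoter there that were measured in both pools, and the 2 starts of Tunar (plus strand, chr12:105336344-105336643 and chr12:105336743-105337042), the called fall with no called spot beside it. Of 6 motifs searched on both strands, those found in these windows are in capitals. The GC box was searched for with the letters GGGCGG. The other motif found, in the promoter of BC037704 alone among these genes, is the box of the letters CCAAT.
4833418N02Rik: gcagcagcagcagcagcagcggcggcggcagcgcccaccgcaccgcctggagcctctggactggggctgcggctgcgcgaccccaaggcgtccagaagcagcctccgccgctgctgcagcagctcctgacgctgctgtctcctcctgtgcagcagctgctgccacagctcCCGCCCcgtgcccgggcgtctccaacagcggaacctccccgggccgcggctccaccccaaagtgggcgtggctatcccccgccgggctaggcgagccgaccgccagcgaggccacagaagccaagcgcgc
BC037704: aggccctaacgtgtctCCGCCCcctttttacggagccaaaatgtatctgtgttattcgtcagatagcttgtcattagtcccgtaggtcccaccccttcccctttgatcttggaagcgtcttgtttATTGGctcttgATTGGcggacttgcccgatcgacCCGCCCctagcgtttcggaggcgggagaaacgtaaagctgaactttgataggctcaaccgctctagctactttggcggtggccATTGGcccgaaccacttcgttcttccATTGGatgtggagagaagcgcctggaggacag
Tunar, first start: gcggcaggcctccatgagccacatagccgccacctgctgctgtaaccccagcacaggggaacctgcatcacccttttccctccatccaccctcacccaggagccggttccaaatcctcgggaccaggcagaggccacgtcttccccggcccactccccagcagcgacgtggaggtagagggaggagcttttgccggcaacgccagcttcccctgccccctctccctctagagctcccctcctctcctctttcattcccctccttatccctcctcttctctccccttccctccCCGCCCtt
Tunar, second start: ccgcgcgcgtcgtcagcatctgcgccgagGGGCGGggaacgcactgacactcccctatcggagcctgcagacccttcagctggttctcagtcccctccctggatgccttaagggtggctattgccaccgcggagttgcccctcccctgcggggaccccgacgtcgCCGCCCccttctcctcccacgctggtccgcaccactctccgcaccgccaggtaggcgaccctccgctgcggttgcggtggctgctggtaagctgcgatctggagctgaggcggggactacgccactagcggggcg
The GC box stood in all of these windows, and in 35.7% of the 32851 promoters of the table and 33.6% of the 702 promoters of the probe set. BC037704 also held 4 matches to CCAAT, which stood in 37.4% of all promoters and 39.2% of those of the probe set. The cyclic AMP response element, searched for as TGACGTCA, stood in 1.79% of all promoters and 2.14% of those of the probe set. For the E box, CACGTG, these shares were 7.15% and 7.12%. For the TATA box, with the letters TATAAA, they were 13.6% and 12.5%. The hexamer of the glucocorticoid response element was searched for as AGAACA and stood in 19% and 19.8%, and no motif was contained in another. The median log2 ratio was -0.06 over 70 probes with this hexamer in their promoter and -0.02 over 287 without it. For the TATA box these medians were -0.06 and -0.02, and for the cyclic AMP response element -0.08 (8 probes) and -0.03. They were -0.03 and -0.03 for the E box, -0.02 and -0.04 for CCAAT, and -0.01 and -0.05 for the GC box. None of these differences was tested. A match describes the letters of the window and not a bound site.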

How the data were processed

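The authors labelled pooled PFC RNA with Cy3, hybridized 1 array per group, and scanned and extracted both with Agilent Feature Extraction 10.10.1.1. The deposited scanner files hold background-subtracted intensities, not yet normalized between arrays. The mean processed intensity was 2946 on the C array and 2611 on the CMS array, 65.2% and 65.9% of spots were well above background, and no spot was saturated. The number of arrays limits the precision.

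Control spots and outlier spots (130 on the C array, 133 on the CMS array) were left out, spots of a probe were averaged, and the mean of each array was set to 2500, the average that the methods give. The deposited value table was scaled otherwise, with values 1.80 times the processed intensities on the C array and 2.05 times on the CMS array (medians), and was used as an alternative. A probe was well above background where a share of at least 0.5 of its spots was marked so. A probe was called above 2-fold or below 0.5 times. For a coding gene with several mRNA probes, the one with the strongest signal was used. Symbols, miRNAs and promoters came from RefSeq tables (GRCm38.p6), and no coordinates were taken from the arrays. The steps were tested on simulated data.

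Named genes were the members of the role lists, the 10 largest rises and 10 largest falls measured in both pools, the 5 largest bounds each way, the 5 strongest probes in the C pool, and coding partners of those. Other called probes, marker genes and neighbors were named after their values were seen. The members and lists were chosen with earlier results of these data known. Alternatives were other scalings, normexp with quantile normalization, the deposited value table, other bounds and filters, outlier spots kept, 1 probe per accession, and, chosen after seeing the data, leaving out probes with called spots beside them. Tools were Python 3.11.15, numpy 2.4.6, pandas 2.3.3, matplotlib 3.10.9, R 4.3.3 and limma 3.58.1.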

Additional observations from a re-analysis of the deposited data

How the results depend on the processing

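No paired analysis was possible because only 1 array was hybridized per pool, and no array could be left out in turn. No called single value changed sign under an alternative. Values near 0 did: 19 medians, 7 of them with no scaling, each at most 0.12 in size as reported, and 51 single values, each at most 0.17. The median over noncoding probes was 0.02 with 75th percentile scaling and 0.01 with trimmed mean scaling or the deposited table. The 13 higher calls became 25 with no bound, 55 with no filter, 4 with normexp and quantile normalization, and 4 with both pools required. The 6 lower calls became 14, 55, 3 and 2 under these settings, and 10 with no scaling. Called either way were 5.56% of noncoding and 4.19% of all probes with no bound, and 9.05% and 7.46% with no filter. These shares were 0.997% and 0.936% with normexp and quantile normalization, and 0.948% and 1.21% with both pools required. With no scaling they were 3.13% and 2.41%. Leaving out probes with at least 2 spots beside them called the same way, chosen after seeing the data, left 4 higher and 1 lower. Serpina4-ps1, 4833418N02Rik and Gm10536 were called in all 12 settings, the reported one included, other than this last one, in which only the first was. BC037704 was not called with no scaling or with normexp and quantile normalization. With no scaling the median over all probes was -0.20, and that over noncoding probes -0.17. The list medians were then -0.20 (nuclear), -0.23 (imprinted), -0.16 (snoRNA hosts), -0.049 (small RNAs) and -0.27 (neural). They were -0.28 (the list of miRNA hosts, not the 13 hosts found by position), -0.32 (activity) and 1.55 (liver pseudogenes). Medians by kind of RNA were -0.16 (noncoding variants of coding genes and snoRNA hosts), -0.15 (antisense and pseudogenes), -0.20 (other noncoding), -0.049 (other small RNAs) and 0.059 (snoRNAs). The liver pseudogene median was 2.12 with no bound or no filter and 0.68 with normexp and quantile normalization. The cause was not tested. Of 1049 values of 97 single probes under alternatives, 165 moved by more than the spot SD. With 1 pool per group the spread between mice is unknown, and dim probes near background limit 13 of the 19 calls.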

Other observations

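Of the 79 noncoding probes without a symbol in the table used, 58 had a ratio, none was called, and the median log2 ratio was 0.01. The accession NR_003280 gave 67208 with C RNA and 97251 with CMS RNA (0.53), and none of the spots beside it was called. In the Dlk1 to Dio3 locus, 1 of the 2 probes of Dlk1 gave 51.2 and 57.4 (0.17) and the other was not well above background, Dio3os had a log2 ratio of 0.01 and Dio3 of -0.23, and the mRNA of Rtl1 was not well above background in either pool. Of the noncoding RNAs of the Hox clusters, Hoxa11os had a log2 ratio of -0.12 and Hoxd3os1 was not well above background.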
